A study of Mus musculus with 18 samples.

Results

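Livers of 8 male C57BL/6J wild-type mice were compared, 4 fed a riboflavin-deficient diet (B2D+FF) and 4 fed the matched control diet (Ctrl+FF), out of 18 livers in the series. All 8 mice stayed on their diet for 9 weeks, received the PPARα agonist fenofibrate (FF) by gavage from week 7 to week 9, were fasted overnight, and were given a last dose 2 hr before the liver was taken. The genes described are the 11878 of 54532 in the table of these 8 livers whose mean level reached 0.5 FPKM, the number of fragments per kilobase after scaling for the size of the library. Since every mouse in this table received the drug, it shows what the diet changed under fenofibrate, and holds no untreated liver against which to measure the drug itself. The riboflavin-deficient diet lowers the intake of vitamin B2 and does not remove a gene, so no targeted gene could be used to check the labels. Each library came from the liver of 1 mouse. Levels are given as FPKM per mouse in the order of mice 1 to 4 of each group, or as mean ± SD with n = 4 per group. Changes are given as differences of log2(FPKM + 1), which understate the change of genes at low FPKM.

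Riboflavin is the precursor of FMN and FAD, the cofactors of flavoproteins such as the acyl-CoA dehydrogenases that begin each round of mitochondrial fatty acid oxidation and the flavin subunits of respiratory complexes I and II. PPARα is the nuclear receptor through which fatty acids, fasting and fibrate drugs raise the genes of fatty acid oxidation and ketone body synthesis in hepatocytes. The integrated stress response is a separate program, in which phosphorylation of the translation factor eIF2α favours production of the transcription factor ATF4, which in turn raises genes of amino acid synthesis, amino acid import and tRNA charging.

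Between 16290762 and 21898502 reads per liver lay on genes, as recovered from the FPKM values. Within groups the libraries correlated at 0.978 to 0.989 (Pearson, log2(FPKM + 1), across genes), against 0.964 to 0.982 between groups. The first principal component held 41.5% of the variance and separated the diets, with scores of -23.1 to -11.7 in Ctrl+FF and 9.67 to 24.3 in B2D+FF. Hepatocyte markers made up 5.22% ± 0.36 of the summed FPKM of Ctrl+FF livers and 4.92% ± 0.21 of that of B2D+FF livers (exact permutation test, two-sided, p = 0.171). On recovered reads, not divided by gene length, the same share differed by -0.445 percentage points, B2D+FF minus Ctrl+FF (exact permutation test, two-sided, p = 0.0286). Of the 10 markers 6 lay above 0 and 4 below, and Serpina1c was the 1 called, as a fall. Alb, the marker with the highest level, stood at 14652 to 17148 FPKM in Ctrl+FF and 11460 to 13198 FPKM in B2D+FF. Ttr stood at 1684 to 1861 FPKM in Ctrl+FF and 1234 to 1493 FPKM in B2D+FF. Alb and Ttr were lower in every B2D+FF mouse and were not called. Markers of T and natural killer cells (10 genes, summed level at most 1.84 FPKM) and of skeletal muscle (5 genes, at most 2.68 FPKM) were all below the level tested, and among the pancreas markers Ctrb1 and Amy2a5 were at 0 in all 8 libraries. Library B2D+FF 2 had the lowest summed level of hepatocyte, macrophage, endothelial, stellate and erythroid markers and the highest of neutrophil markers (14.1 FPKM). Its summed FPKM over all genes was also the lowest, at 400334 against 423995 to 470586 in the other libraries. As a share of summed FPKM its hepatocyte markers were not the lowest, at 4.81% against 4.69% in B2D+FF 4. Without library B2D+FF 2, 517 genes were called, against 529 with it, and 391 genes were called in the same direction in both. In bulk liver, fewer cells of a type and less RNA per cell cannot be told apart.

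With fenofibrate given to both groups, 529 genes differed between the diets. Of the 11878 genes tested, 266 (2.24%) were higher and 263 (2.21%) lower in B2D+FF than in Ctrl+FF, 4.45% in all, at a limma adjusted p under 0.05. Falls were somewhat larger than rises: the median size of a called change was 0.56 for rises and 0.76 for falls. A change of at least 1 on the log2 scale was seen in 57 of the 266 rises and 84 of the 263 falls, and of at least 2 in 4 of the rises and 18 of the falls. The share of genes called grew with the level, from 2.13% of 1881 genes between 0.5 and 1 FPKM to 13.3% of 105 genes above 500 FPKM. Protein-coding genes made up 253 of the rises and 202 of the falls. Among unprocessed pseudogenes, 15 of 50 fell and 0 rose, and among lincRNA genes 12 of 261 fell and 3 rose. Scaling each library to one upper quartile moved the median of all genes by -0.045 and gave 223 rises and 366 falls. Leaving out 1 mouse left between 175 genes (without Ctrl+FF 1) and 596 genes (without B2D+FF 3), 188 without Ctrl+FF 2, 242 without Ctrl+FF 3, 302 without B2D+FF 1 and 298 without B2D+FF 4.

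**Figure D1:**
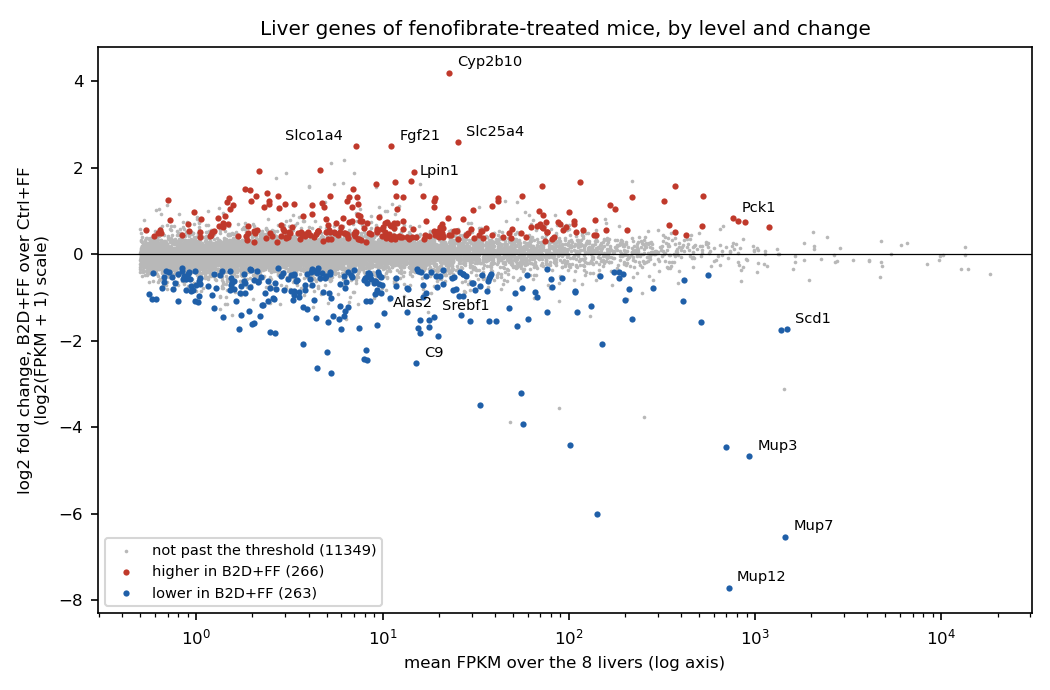
Each point is 1 of 11878 genes, placed by its mean FPKM over the 8 livers (log axis) and its log2 fold change of B2D+FF over Ctrl+FF. The 266 called rises (red) reach 4.19 at Cyp2b10, and the 263 called falls (blue) reach -7.71 at Mup12.

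The strongest single rise was in Cyp2b10 (ENSMUSG00000030483, chromosome 7, 25897620 to 25926624 on GRCm38), a drug-metabolizing cytochrome P450 and the classic target of the receptor CAR. It stood at 0.548, 1.78, 0.981 and 3.07 FPKM in Ctrl+FF and 47.9, 41.8, 36.1 and 49 FPKM in B2D+FF. The lowest B2D+FF mouse was well above the highest Ctrl+FF mouse, and the ratio of means was 27.4 (log2 fold change 4.19, SE 0.26, limma adjusted p = 0.000356). Reads of Cyp2b10 can be shared with near-identical members of its family, so its level is less certain than its direction. Slc25a4 (ENSMUSG00000031633, chromosome 8, 46206797 to 46211284), the ADP/ATP carrier of heart and muscle mitochondria, stood at 6.99, 4.6, 8.39 and 5.37 FPKM in Ctrl+FF and 64.5, 35.7, 28.3 and 48.8 FPKM in B2D+FF. Slc25a4 rose by 2.59 on the log2 scale (SE 0.25, limma adjusted p = 0.00206). Slc25a5, the carrier isoform already abundant in these livers, rose from 407 ± 36 to 634 ± 39.3 FPKM (limma adjusted p = 0.012).

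Further large rises were found in genes of signaling and of the cell surface. Cd24a, a surface glycoprotein, rose from 1.14 ± 0.143 to 8.11 ± 5.08 FPKM (log2 fold change 1.94, SE 0.30, limma adjusted p = 0.0103) and Bmper, a secreted regulator of BMP signaling, from 0.295 ± 0.0954 to 4.06 ± 1.48 FPKM (log2 fold change 1.93, SE 0.18, limma adjusted p = 0.00204). Bmper lay under 0.43 FPKM in each Ctrl+FF mouse, with 16 to 35 reads per Ctrl+FF library and 253 to 500 reads per B2D+FF library. Rgs16, a regulator of G protein signaling, stood at 4.35, 3.22, 9.1 and 4.67 FPKM in Ctrl+FF and 15.6, 17.4, 47.5 and 15.9 FPKM in B2D+FF, so that B2D+FF 3 stood far above the other B2D+FF mice (log2 fold change 1.90, SE 0.37, limma adjusted p = 0.0245). Nt5e, the ectonucleotidase CD73 that makes adenosine outside the cell, rose from 2.23 ± 0.370 to 6.12 ± 0.958 FPKM (limma adjusted p = 0.00247). Nrg4, a growth factor of the ERBB family, rose from 2.74 ± 0.397 to 6.9 ± 0.820 FPKM (limma adjusted p = 0.00214), and Retreg1, a receptor for autophagy of the endoplasmic reticulum, from 19.7 ± 1.47 to 41.6 ± 5.43 FPKM (limma adjusted p = 0.00252). Cyp2b10, Slc25a4, Slc25a5, Cd24a, Bmper, Nt5e, Nrg4 and Retreg1 passed in each of the 8 fits with 1 mouse removed. Rgs16 passed in 5 (limma adjusted p up to 0.0796, without Ctrl+FF 1).

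Genes that take up riboflavin and convert it to FMN and FAD did not pass the threshold. Of 10 listed genes 9 were tested, and 0 were called, against 4.45% of all genes. The kinase Rfk, which makes FMN, came closest, at 26.3, 25.9, 28.1 and 22.3 FPKM in Ctrl+FF and 32.6, 35.4, 31.4 and 30.4 FPKM in B2D+FF. Its groups did not overlap, yet the change was 0.33 on the log2 scale (limma adjusted p = 0.0817). Flad1, which makes FAD from FMN, changed by 0.31 (SE 0.11), the plasma membrane carrier Slc52a2 by -0.0043 (SE 0.13) and the mitochondrial FAD carrier Slc25a32 by 0.22 (SE 0.18). The enzymes that can remove phosphate or AMP from flavins (Enpp1, Enpp3, Acp1, Acp2 and Alpl) lay between -0.25 for Acp2 and 0.33 for Alpl. The carrier Slc52a3 was below the level tested, with a mean of 0.0899 FPKM over the 8 livers.

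Flavoprotein genes as a group were balanced. Of 109 listed, 100 were tested, 6 rose and 3 fell (9.00% called, against 4.45% of all genes), and the median change was -0.00233 against 0.0128 over all genes, a sign that flipped in 4 of 15 alternatives. The count moved from 9 to 3 (without Ctrl+FF 1 or Ctrl+FF 2), 4 (without B2D+FF 4) and 5 (without Ctrl+FF 3). By role, the 3 genes of the electron transfer flavoprotein and its dehydrogenase were all above 0 (median 0.23, 0 called), 7 of 12 acyl-CoA dehydrogenases were above 0 (median 0.051, 1 called higher), and 7 of 8 peroxisomal oxidases were below 0 (median -0.26), with Hao2 the 1 called, as a rise. Acadm, the medium-chain acyl-CoA dehydrogenase, stood at 366, 389, 324 and 339 FPKM in Ctrl+FF and 454, 356, 404 and 501 FPKM in B2D+FF, groups that overlapped. Acadm changed by 0.27 on the log2 scale (SE 0.13, limma adjusted p = 0.263). Acadl, the long-chain dehydrogenase, stood at 304 ± 12.2 FPKM in Ctrl+FF and 434 ± 41.1 FPKM in B2D+FF (log2 fold change 0.51, SE 0.10, limma adjusted p = 0.0239). Ndufv1, the subunit that carries the FMN of complex I, stood at 62.2 ± 2.2 FPKM in Ctrl+FF and 89.8 ± 8.53 FPKM in B2D+FF (limma adjusted p = 0.0182). Foxred1, an assembly factor of complex I that binds FAD, rose from 9.05 ± 0.455 to 12.5 ± 0.672 FPKM (limma adjusted p = 0.0169), and Nox4, an oxidase that produces hydrogen peroxide, fell from 2.38 ± 0.348 to 1.21 ± 0.292 FPKM (limma adjusted p = 0.0204). Acadl passed in 2 of the 8 fits with 1 mouse removed (limma adjusted p up to 0.0788, without Ctrl+FF 1) and Ndufv1 in 4 (up to 0.0752, without Ctrl+FF 2). Foxred1 passed in 6 (up to 0.0665, without Ctrl+FF 2) and Nox4 in 5 (up to 0.0706, without Ctrl+FF 1).

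Of the PPARα target genes tested 14.7% passed the threshold, against 4.45% of all genes. The receptor Ppara stood at 53.3, 60, 54.1 and 53.7 FPKM in Ctrl+FF and 37.4, 42, 47.4 and 53.8 FPKM in B2D+FF (log2 fold change -0.30, SE 0.12, limma adjusted p = 0.185) and its partner Rxra changed by -0.12 (SE 0.12). Of 102 target genes tested out of 104 listed, 11 rose and 4 fell (14.7% called), with a median of 0.14 (the count moved from 15 to 5 (without Ctrl+FF 1 or Ctrl+FF 2) and 9 (without Ctrl+FF 3 or B2D+FF 1)). Among 18 genes of mitochondrial β-oxidation, 17 were above 0 (median 0.21) and 2 rose, whereas 8 of 16 genes of peroxisomal β-oxidation were above 0 (median -0.033) and 1 rose. The 3 genes of ketone body synthesis had a median of 0.059, and none was called.

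Among the roles, lipid droplet and lipolysis genes were called most often, with 3 rises and 2 falls among 13 (38.5% called, against 4.45% of all genes). Hilpda, an inhibitor of the lipase ATGL, stood at 1.93, 4.46, 2.14 and 4.17 FPKM in Ctrl+FF and 12.1, 9.89, 7.4 and 13.3 FPKM in B2D+FF, without overlap. Hilpda rose by 1.51 on the log2 scale (SE 0.24, limma adjusted p = 0.0117). Pnpla2, the gene of ATGL itself, rose from 101 ± 13.1 to 176 ± 29.9 FPKM (limma adjusted p = 0.0203) and the lipid droplet protein Cidec from 67.3 ± 13.6 to 132 ± 23.5 FPKM (limma adjusted p = 0.0187). Fitm1, which helps to package triglyceride into droplets, fell from 70.7 ± 11.1 to 40.9 ± 6.78 FPKM (limma adjusted p = 0.0245). Aqp3, a glycerol channel, stood at 3.7, 8.47, 6.29 and 6.77 FPKM in Ctrl+FF and 17.1, 12.3, 18.2 and 21.5 FPKM in B2D+FF. Aqp3 rose by 1.34 on the log2 scale (SE 0.22, limma adjusted p = 0.0136). The uncoupling protein homologue Ucp2 rose from 15.7 ± 1.53 to 26 ± 1.46 FPKM (limma adjusted p = 0.00487) and Slc25a47, a liver mitochondrial carrier, from 189.6 ± 22.1 to 458 ± 133 FPKM (limma adjusted p = 0.0162). Hilpda, Aqp3 and Ucp2 passed in each of the 8 fits with 1 mouse removed. Pnpla2 passed in 3 (limma adjusted p up to 0.0726, without Ctrl+FF 1) and Cidec in 4 (up to 0.0689, without Ctrl+FF 1). Fitm1 passed in 4 (up to 0.0839, without Ctrl+FF 2) and Slc25a47 in 6 (up to 0.0593, without Ctrl+FF 2).

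**Figure D2:**
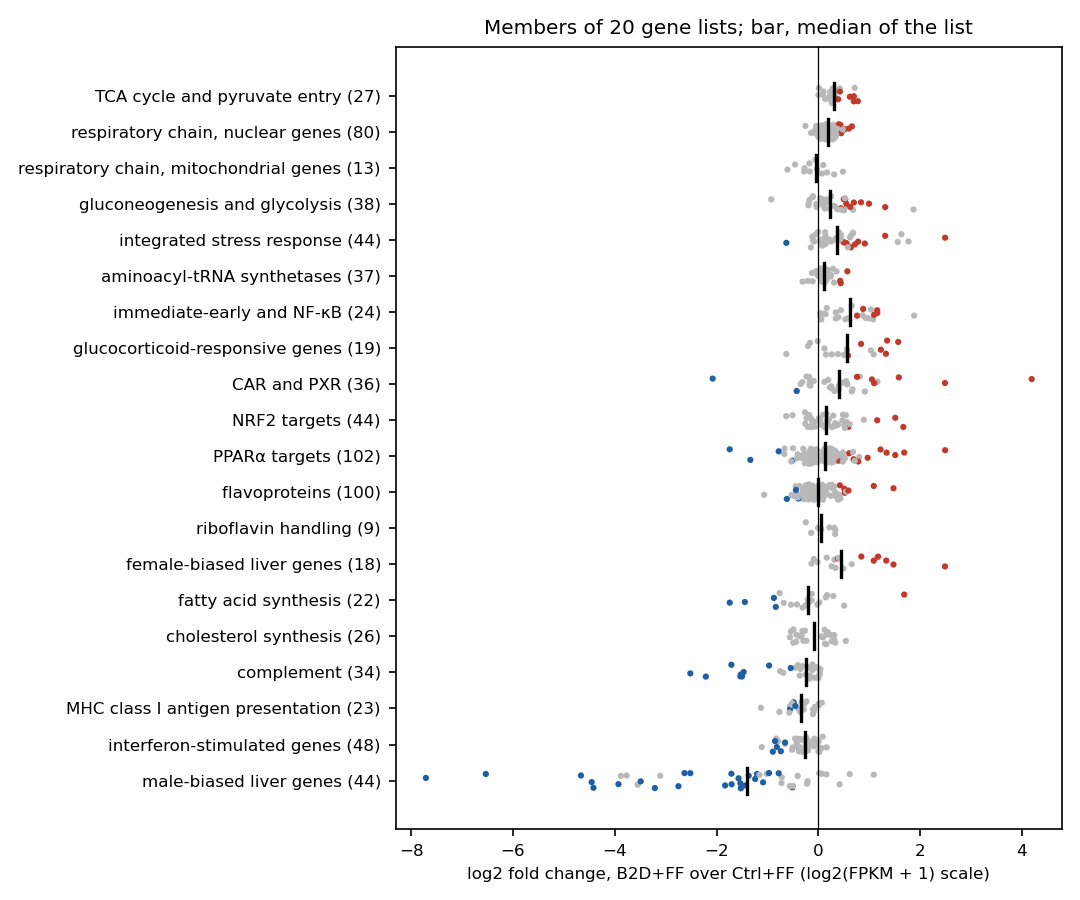
Each row is a gene list with the number of its genes tested, each point a gene at its log2 fold change of B2D+FF over Ctrl+FF (red, called higher; blue, called lower; grey, not called), and the black bar the median of the list. The medians run from 0.62 for immediate-early and NF-κB genes to -1.40 for genes that are higher in male liver.

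Most tested genes of the integrated stress response were higher in B2D+FF. Of 57 listed genes 44 were tested, 36 lay above 0, 8 rose and 1 fell (20.5% called, against 4.45% of all genes). The median change was 0.38 (0.31 to 0.41 in the alternatives), against 0.0128 over all genes. The count moved from 9 to 2 (without Ctrl+FF 1) and 3 (without Ctrl+FF 2 or Ctrl+FF 3). By role, 7 of 7 tested transcription factors were above 0 (median 0.50, 1 rose), 9 of 10 amino acid synthesis genes (median 0.34, 4 rose) and 14 of 15 stress effectors (median 0.44, 2 rose), while the 7 kinases and regulators had a median of 0.14 and 0 calls. Fgf21 (ENSMUSG00000030827, chromosome 7, 45613886 to 45615490), a fasting hormone that both PPARα and ATF4 can raise, stood at 1.28, 3.83, 1.09 and 4.1 FPKM in Ctrl+FF and 11.3, 17.3, 12.4 and 37.9 FPKM in B2D+FF. The lowest B2D+FF mouse was at 11.3 FPKM, above the highest Ctrl+FF mouse at 4.10 FPKM, and the mean was 7.66 times higher (log2 fold change 2.49, SE 0.41, limma adjusted p = 0.0137).

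The amino acid synthesis genes covered serine, one-carbon, aspartate and alanine metabolism. Psat1, an aminotransferase of serine synthesis, stood at 0.272, 0.0857, 0.365 and 0.333 FPKM in Ctrl+FF and 1.64, 1.35, 0.875 and 0.883 FPKM in B2D+FF. Psat1 rose by 0.78 on the log2 scale (SE 0.13, limma adjusted p = 0.0156), with 6 to 27 reads per Ctrl+FF library and 77 to 119 reads per B2D+FF library. Mthfd1l, a mitochondrial enzyme of one-carbon metabolism, rose from 0.816 ± 0.258 to 1.83 ± 0.345 FPKM (limma adjusted p = 0.0245). Got1, the cytosolic aspartate aminotransferase, stood at 157, 75.8, 128 and 145 FPKM in Ctrl+FF and 241, 274, 349.9 and 372 FPKM in B2D+FF, with no overlap. Got1 rose by 1.31 on the log2 scale (SE 0.23, limma adjusted p = 0.0179), and Gpt2, the mitochondrial alanine aminotransferase, rose from 128 ± 6.36 to 189.6 ± 26.4 FPKM (limma adjusted p = 0.0277). Trib3, a pseudokinase raised by ATF4, stood at 4.24, 6.15, 4.14 and 4.5 FPKM in Ctrl+FF and 9.95, 7.13, 10.4 and 12.1 FPKM in B2D+FF. Trib3 rose by 0.91 on the log2 scale (SE 0.16, limma adjusted p = 0.0164), and Slc3a2, the heavy chain of amino acid exchangers, rose from 8.36 ± 0.620 to 14.6 ± 3.18 FPKM (limma adjusted p = 0.0239). The transcription factor Jdp2 rose from 0.359 ± 0.0721 to 0.925 ± 0.187 FPKM (limma adjusted p = 0.0228) and Slc1a4, a carrier of alanine and serine, fell from 2.14 ± 0.438 to 1.03 ± 0.260 FPKM (limma adjusted p = 0.0246). Fgf21 and Got1 passed in each of the 8 fits with 1 mouse removed. Psat1 passed in 6 (limma adjusted p up to 0.0515, without Ctrl+FF 1), Trib3 in 6 (up to 0.0588, without Ctrl+FF 1), Mthfd1l in 3 (up to 0.0809, without Ctrl+FF 2) and Gpt2 in 2 (up to 0.0971, without Ctrl+FF 2). Slc3a2 passed in 4 (up to 0.0793, without Ctrl+FF 1), Jdp2 in 4 (up to 0.0792, without Ctrl+FF 2) and Slc1a4 in 4 (up to 0.0754, without Ctrl+FF 2).

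Several other well-known genes of this response did not pass, and some of them varied widely among the B2D+FF mice. Atf4 stood at 19.9, 21.5, 21.4 and 29.2 FPKM in Ctrl+FF and 30.2, 39.3, 27.1 and 34.1 FPKM in B2D+FF, groups that overlapped by 1 mouse on each side. Atf4 changed by 0.49 on the log2 scale (SE 0.15, limma adjusted p = 0.0935). Atf3, a transcription factor induced by ATF4, stood at 0.0566, 0.141, 0.401 and 0.630 FPKM in Ctrl+FF and 1.25, 13.4, 1.03 and 4.67 FPKM in B2D+FF, without overlap. Gdf15, a stress hormone, stood at 2.2, 3.15, 2.11 and 7.36 FPKM in Ctrl+FF and 5.52, 33, 7.44 and 13 FPKM in B2D+FF, with overlap. In both, B2D+FF 2 was the highest mouse and B2D+FF 4 the next, and neither gene passed (log2 fold change 1.77 (SE 0.55), limma adjusted p = 0.101 for Atf3 and 1.56 (SE 0.50), limma adjusted p = 0.113 for Gdf15). Ddit3, Asns and Atf5 also overlapped between groups and changed by 0.58 (SE 0.25), 0.62 (SE 0.31) and 0.68 (SE 0.27). Ddit4 stood at 8.26, 3.15, 11.5 and 4.74 FPKM in Ctrl+FF and 30.2, 8.38, 42.4 and 19 FPKM in B2D+FF and did not pass (limma adjusted p = 0.0896). Among aminoacyl-tRNA synthetases, 18 of 20 cytosolic genes were above 0 (median 0.15) and 3 rose, Gars from 11.5 ± 1.03 to 17.6 ± 2.2 FPKM (limma adjusted p = 0.0201), Sars from 8.65 ± 0.230 to 12 ± 1.02 FPKM (limma adjusted p = 0.0191) and Rars from 5.31 ± 0.525 to 7.58 ± 1.00 FPKM (limma adjusted p = 0.0465), whereas 11 of 17 mitochondrial ones were above 0 (median 0.073) and none was called. Gars passed in 4 of the 8 fits with 1 mouse removed (limma adjusted p up to 0.0752, without Ctrl+FF 2), Sars in 5 (up to 0.0739, without Ctrl+FF 2) and Rars in 1 (up to 0.13, without Ctrl+FF 2). The count over both groups of synthetases, 8.11% of 37 against 4.45% of all genes, moved from 3 to 0 (without Ctrl+FF 1, Ctrl+FF 2 or Ctrl+FF 3) and 1 (without B2D+FF 4). ER chaperones had 0 calls among 25 genes tested, with a median of -0.068, a sign that flipped in 1 of 15 alternatives.

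The C/EBP-ATF response element, at which ATF4 binds with a C/EBP partner, was searched in the RefSeq promoters (GRCm38.p6, 250 bases before to 50 after the start of transcription) of the 8428 tested genes that had one, as TGATGNAA on both strands. It was found in 2.65% of these 8428 genes, in 10 of 36 genes of the integrated stress response list (27.8%), in 5 of 26 aminoacyl-tRNA synthetases, in 15 of 210 genes that rose (7.14%) and in 8 of 175 genes that fell (4.57%). Of the 9 called genes of the stress list, 5 held it, Fgf21, Got1, Trib3, Jdp2 and Slc1a4, the last of which fell. The promoters of the 4 that rose are shown with the element in capitals, which reads TGATGNAA on the strand of the gene in Jdp2 and on the opposite strand in the other 3. They lie at chr7:45615441-45615740 (minus strand), chr19:43524556-43524855 (minus), chr2:152344011-152344310 (minus) and chr12:85599166-85599465 (plus), and the element begins 139 bases before the start in Fgf21, 102 before in Got1, 33 before in Jdp2 and 14 bases after it in Trib3. A match is a description of the sequence and no measurement of binding.
Fgf21: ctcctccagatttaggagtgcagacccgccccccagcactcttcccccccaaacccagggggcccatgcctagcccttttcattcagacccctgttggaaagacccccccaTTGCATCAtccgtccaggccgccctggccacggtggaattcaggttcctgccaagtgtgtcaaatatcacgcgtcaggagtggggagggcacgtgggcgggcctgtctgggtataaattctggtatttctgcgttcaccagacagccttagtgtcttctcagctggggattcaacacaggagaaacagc
Got1: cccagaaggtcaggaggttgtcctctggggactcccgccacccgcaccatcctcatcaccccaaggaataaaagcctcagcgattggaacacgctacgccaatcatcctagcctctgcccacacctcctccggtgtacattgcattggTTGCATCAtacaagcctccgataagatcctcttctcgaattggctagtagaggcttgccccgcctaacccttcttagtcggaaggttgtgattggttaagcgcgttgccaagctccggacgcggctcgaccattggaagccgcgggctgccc
Trib3: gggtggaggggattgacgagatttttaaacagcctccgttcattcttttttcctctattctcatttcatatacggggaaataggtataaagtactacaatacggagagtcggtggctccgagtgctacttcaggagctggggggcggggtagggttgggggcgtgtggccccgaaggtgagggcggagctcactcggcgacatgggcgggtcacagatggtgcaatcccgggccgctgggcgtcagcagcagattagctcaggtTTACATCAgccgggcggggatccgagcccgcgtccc
Jdp2: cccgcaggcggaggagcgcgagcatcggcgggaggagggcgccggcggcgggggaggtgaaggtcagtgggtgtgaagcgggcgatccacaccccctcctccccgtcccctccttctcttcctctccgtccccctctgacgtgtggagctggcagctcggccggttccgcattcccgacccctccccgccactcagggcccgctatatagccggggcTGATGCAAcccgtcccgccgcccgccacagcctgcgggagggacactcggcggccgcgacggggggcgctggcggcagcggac

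All tested genes of the tricarboxylic acid cycle and of pyruvate entry had changes above 0, and 6 of them passed. Of 29 listed genes 27 were tested, and 27 of 27 lay above 0 with a median of 0.31, whereas 6269 of all 11878 genes lay above 0. In 12 of the 27 the groups did not overlap, against 7.82% of all genes that were higher without overlap. Of the 27, 6 rose (22.2% called, against 4.45% of all genes). Idh3a, the catalytic subunit of the NAD-dependent isocitrate dehydrogenase, stood at 9.46, 8.46, 8.92 and 9.85 FPKM in Ctrl+FF and 18, 16.8, 14 and 17.1 FPKM in B2D+FF. Idh3a rose by 0.78 on the log2 scale (SE 0.09, limma adjusted p = 0.00391). Mdh2, the mitochondrial malate dehydrogenase, stood at 74.8, 67.6, 62.4 and 68.3 FPKM in Ctrl+FF and 122, 100.5, 103 and 121 FPKM in B2D+FF. Mdh2 rose by 0.70 on the log2 scale (SE 0.10, limma adjusted p = 0.00896). Fumarase (Fh1) rose from 81.4 ± 9.78 to 133 ± 17.7 FPKM (limma adjusted p = 0.0182), the NADP-dependent Idh2 from 56.4 ± 2.41 to 87.6 ± 12.4 FPKM (limma adjusted p = 0.0179), and the pyruvate dehydrogenase subunits Dlat and Pdhx by 0.39 and 0.42 on the log2 scale (limma adjusted p = 0.0364 for Dlat, limma adjusted p = 0.0294 for Pdhx). Idh3a and Mdh2 passed in each of the 8 fits with 1 mouse removed. Idh2 passed in 6 (limma adjusted p up to 0.0687, without Ctrl+FF 2) and Fh1 in 6 (up to 0.0696, without Ctrl+FF 2). Pdhx passed in 2 (up to 0.102, without Ctrl+FF 2) and Dlat in 1 (up to 0.107, without Ctrl+FF 2). The list's count moved from 6 to 2 (without Ctrl+FF 1 or Ctrl+FF 2).

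Respiratory chain genes of the nucleus lay mostly above 0, and those of the mitochondrial genome did not. Of 80 nuclear genes 71 lay above 0 (median 0.19) and 6 rose (7.5% called, against 4.45% of all genes). Above 0 were 10 of 10 complex III genes (median 0.22, 3 rose) and 12 of 12 complex IV genes (median 0.20, 1 rose). Cytochrome c (Cycs) stood at 47, 54.6, 48.8 and 55.7 FPKM in Ctrl+FF and 95, 79.3, 67.8 and 87.8 FPKM in B2D+FF. Cycs rose by 0.66 on the log2 scale (SE 0.12, limma adjusted p = 0.0182), and Atp5b, the catalytic subunit of ATP synthase, rose from 359 ± 9.37 to 491 ± 30.4 FPKM (limma adjusted p = 0.0251). The 13 protein genes of the mitochondrial genome had a median of -0.056, a sign that flipped in 1 of 15 alternatives, and 0 calls. They held 15.3% ± 0.98 of the summed FPKM of Ctrl+FF livers and 14.5% ± 1.55 of that of B2D+FF livers (exact permutation test, two-sided, p = 0.4). Among them mt-Co1, of complex IV, stood at 20022, 20980.2, 21241 and 21363 FPKM in Ctrl+FF and 12513, 17355, 14953 and 16514 FPKM in B2D+FF, lower in every B2D+FF mouse without passing the threshold. mt-Co1 changed by -0.46 on the log2 scale (SE 0.13, limma adjusted p = 0.086), while mt-Nd1, of complex I, changed by 0.17 (SE 0.13). Of 33 mitochondrial carriers tested 6 rose and 2 fell (24.2% called). Among them Slc25a12, the aspartate-glutamate carrier, rose from 1.88 ± 0.173 to 3.06 ± 0.316 FPKM (limma adjusted p = 0.014). Cycs passed in 4 of the 8 fits with 1 mouse removed (limma adjusted p up to 0.0687, without Ctrl+FF 1), Atp5b in 2 (up to 0.0908, without Ctrl+FF 2) and Slc25a12 in 7 (up to 0.0551, without Ctrl+FF 2). The count of nuclear respiratory chain genes moved from 6 to 0 (without Ctrl+FF 1, Ctrl+FF 2 or B2D+FF 4), 1 (without Ctrl+FF 3) and 2 (without Ctrl+FF 4 or B2D+FF 1), and that of the carriers from 8 to 2 (without Ctrl+FF 2), 3 (without Ctrl+FF 1) and 5 (without Ctrl+FF 3, Ctrl+FF 4, B2D+FF 1 or B2D+FF 4).

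Of the enzymes of glycolysis and gluconeogenesis, several rose and none fell. Of 41 listed genes 38 were tested, 29 lay above 0 (median 0.23) and 9 rose (23.7% called, against 4.45% of all genes). Pck1, the cytosolic enzyme that commits oxaloacetate to glucose, stood at 517, 415, 573 and 664 FPKM in Ctrl+FF and 766, 877, 1279 and 978 FPKM in B2D+FF, without overlap. Pck1 rose by 0.84 on the log2 scale (SE 0.19, limma adjusted p = 0.0407). Aldoa, the muscle-type aldolase, stood at 45.9, 47, 44.2 and 44 FPKM in Ctrl+FF and 118, 69.8, 79.9 and 106 FPKM in B2D+FF. Aldoa rose by 1.00 on the log2 scale (SE 0.16, limma adjusted p = 0.0112), with the Ctrl+FF mice within 3 FPKM of each other. Eno1 rose from 75.1 ± 2.86 to 117 ± 11.1 FPKM (limma adjusted p = 0.00983), Gpi1 from 20 ± 0.999 to 29.5 ± 4.49 FPKM (limma adjusted p = 0.0286), Pgk1 from 166 ± 8.7 to 245 ± 35.7 FPKM (limma adjusted p = 0.0347) and Pgam1 from 89.8 ± 3.94 to 128 ± 12 FPKM (limma adjusted p = 0.0218), enzymes that act in both directions. Galk1, which phosphorylates galactose, and Slc37a4, the glucose-6-phosphate carrier, changed by 0.52 (SE 0.13) and 0.56 (SE 0.15) and did not pass, although each passed in 5 of 15 alternatives. Gapdh was listed at 1.28, 1.34, 1.73 and 1.93 FPKM in Ctrl+FF and 2.64, 3.95, 31.4 and 12 FPKM in B2D+FF, a level that pseudogene copies of this gene make uncertain. The coactivator Ppargc1a stood at 1.23, 1.78, 1.72 and 2.69 FPKM in Ctrl+FF and 1.91, 4.42, 3.8 and 4.44 FPKM in B2D+FF, with overlapping groups (limma adjusted p = 0.111). Aldoa and Eno1 passed in each of the 8 fits with 1 mouse removed. Gpi1 passed in 3 (limma adjusted p up to 0.0933, without Ctrl+FF 2) and Pck1 in 2 (up to 0.114, without Ctrl+FF 1). Pgk1 passed in 2 (up to 0.0971, without Ctrl+FF 1) and Pgam1 in 2 (up to 0.0733, without Ctrl+FF 2). The count for both pathways moved from 9 to 4 (without Ctrl+FF 1, Ctrl+FF 2, Ctrl+FF 3 or B2D+FF 4).

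**Figure D3:**
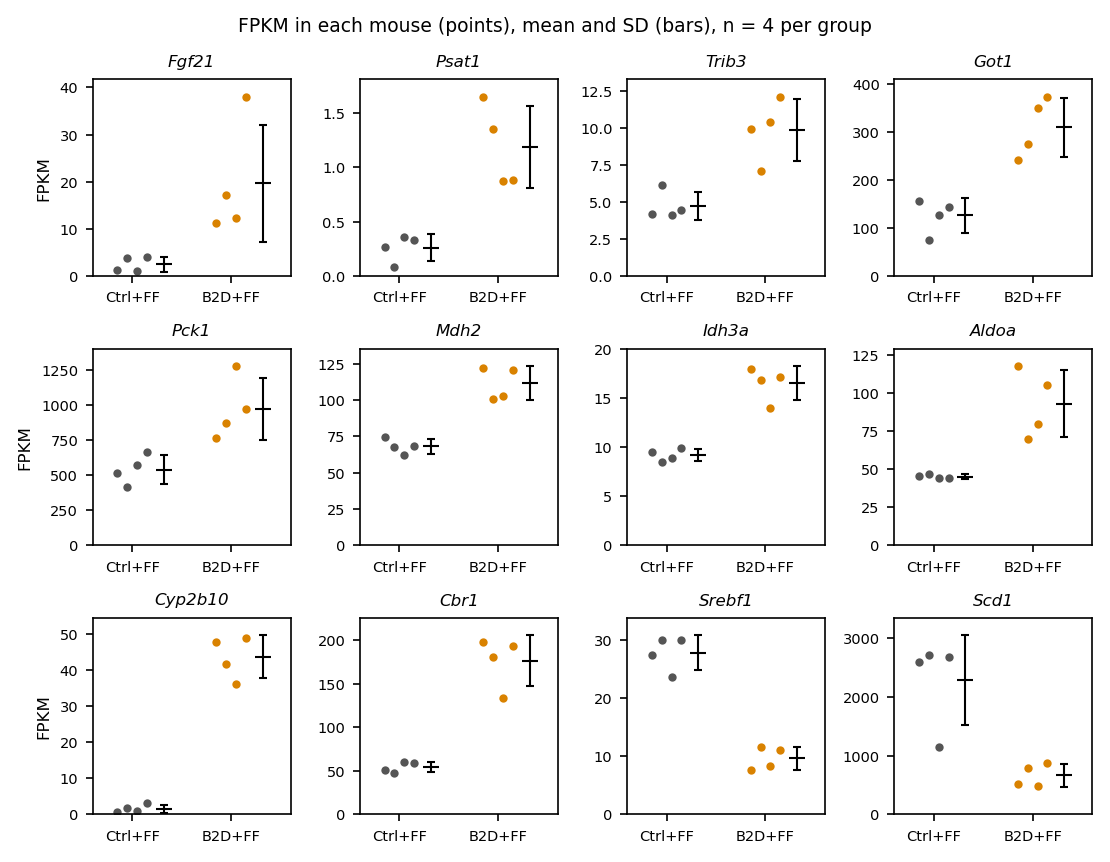
FPKM of 12 genes in each of the 8 mice (points; axes start at 0), with the mean and SD of each group of 4 beside them. In all 12 genes no point of one group lies within the range of the other, from Fgf21 and Psat1 with the widest relative spread in B2D+FF to Aldoa with Ctrl+FF mice between 44.0 and 47.0 FPKM.

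Of 10 urea cycle genes, 3 were called (30%, against 4.45% of all genes) and all 3 rose. Asl, the argininosuccinate lyase, stood at 105, 76.4, 115 and 106 FPKM in Ctrl+FF and 229, 136, 267 and 287 FPKM in B2D+FF. Asl rose by 1.14 on the log2 scale (SE 0.23, limma adjusted p = 0.0277), Arg1 rose from 930.2 ± 125 to 1445 ± 179.8 FPKM (limma adjusted p = 0.0327) and Ass1 from 656 ± 122 to 1101 ± 185 FPKM (limma adjusted p = 0.0455). Tat, which begins tyrosine breakdown, stood at 316, 175, 351 and 354 FPKM in Ctrl+FF and 584, 718, 1007 and 694 FPKM in B2D+FF. Tat rose by 1.35 on the log2 scale (SE 0.25, limma adjusted p = 0.0188), and Gldc, of the glycine cleavage system, rose from 39.6 ± 2.34 to 59.5 ± 4.11 FPKM (limma adjusted p = 0.00989). The 3 amino acid genes that fell act in tryptophan breakdown through kynurenine, Afmid (from 12 ± 1.44 to 7.18 ± 1.37 FPKM, limma adjusted p = 0.0244), Haao (from 227 ± 16.9 to 165 ± 6.13 FPKM, limma adjusted p = 0.0252) and Ido2 (limma adjusted p = 0.0384), the last named after its values were seen. Among markers of the lobule's zones, 5 of 16 portal genes rose (median 0.35), of which Asl, Arg1, Ass1, Pck1 and Gldc are also named here for their pathways, while 1 of 16 central genes fell (median -0.12). That gene was Rgn, at 433, 332, 351 and 321 FPKM in Ctrl+FF and 194, 227, 197 and 207 FPKM in B2D+FF. Rgn fell by 0.79 on the log2 scale (SE 0.12, limma adjusted p = 0.0094). Gldc and Rgn passed in each of the 8 fits with 1 mouse removed. Tat passed in 7 (limma adjusted p up to 0.0577, without Ctrl+FF 1), Asl in 1 (up to 0.0856, without Ctrl+FF 2) and Arg1 in 2 (up to 0.106, without Ctrl+FF 2). Ass1 passed in 0 (up to 0.107, without B2D+FF 4), Afmid in 5 (up to 0.0807, without Ctrl+FF 1) and Haao in 3 (up to 0.0949, without Ctrl+FF 1). The count for amino acid breakdown and the urea cycle together, 8 of 61, moved from 8 to 1 (without Ctrl+FF 1), 2 (without Ctrl+FF 2), 3 (without Ctrl+FF 3 or B2D+FF 1), 4 (without Ctrl+FF 4 or B2D+FF 4) and 5 (without B2D+FF 3), and that for the zone markers from 6 to 2 (without Ctrl+FF 1, Ctrl+FF 2, B2D+FF 3 or B2D+FF 4) and 3 (without Ctrl+FF 3 or Ctrl+FF 4).

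Several genes that respond to glucocorticoid and several of the immediate-early response rose in B2D+FF. Of 19 glucocorticoid-responsive genes tested 6 rose and 0 fell (31.6% called, against 4.45% of all genes, median 0.56). Among them Zbtb16, a transcriptional repressor, stood at 2.23, 5.26, 4.06 and 2.54 FPKM in Ctrl+FF and 8.09, 8.54, 11.2 and 9.34 FPKM in B2D+FF. Zbtb16 rose by 1.23 on the log2 scale (SE 0.20, limma adjusted p = 0.0135), and Mt1, a metallothionein, rose from 189 ± 66.1 to 558 ± 185 FPKM (limma adjusted p = 0.0179). Lepr, the leptin receptor, stood at 4.75, 6.63, 8.77 and 6.92 FPKM in Ctrl+FF and 18.2, 10.6, 24.4 and 22.7 FPKM in B2D+FF (limma adjusted p = 0.0204), and the remaining ones were Tat, Pck1 and Fkbp5. Of 24 immediate-early and NF-κB genes tested 24 lay above 0 (median 0.62) and 5 rose (20.8% called). These were Klf6, Klf10, Jund, Gadd45b and Junb. Klf6 stood at 1.64, 1.63, 1.83 and 1.42 FPKM in Ctrl+FF and 3.88, 8.08, 4.27 and 4.06 FPKM in B2D+FF (log2 fold change 1.16, SE 0.18, limma adjusted p = 0.0117) and Gadd45b, a stress-induced growth arrest gene, at 9.43, 9.67, 13.1 and 14.4 FPKM in Ctrl+FF and 32.6, 21.3, 21.7 and 28.6 FPKM in B2D+FF. Gadd45b rose by 1.09 on the log2 scale (SE 0.18, limma adjusted p = 0.012). Among p53 targets 3 of 18 rose (16.7% called). Trp53inp1 stood at 7.53, 7.82, 10.3 and 9.42 FPKM in Ctrl+FF and 20.3, 34, 21.3 and 21.4 FPKM in B2D+FF (limma adjusted p = 0.0042). Btg2 rose from 3.55 ± 0.672 to 11 ± 5.26 FPKM (limma adjusted p = 0.0203). HIF target genes rose in 3 of 24 tested (Hilpda, Aldoa and Pgk1, 12.5% called, median 0.21). Casp6, a caspase, rose from 3.48 ± 0.375 to 5.53 ± 0.494 FPKM (limma adjusted p = 0.0128), while P4ha1, a collagen hydroxylase, and Ier3, an immediate-early gene, changed by 0.40 (SE 0.22) and 0.58 (SE 0.22) and did not pass. Zbtb16, Klf6, Gadd45b and Trp53inp1 passed in each of the 8 fits with 1 mouse removed. Mt1 passed in 6 (limma adjusted p up to 0.0646, without Ctrl+FF 2), Klf10 in 7 (up to 0.0525, without Ctrl+FF 3) and Lepr in 4 (up to 0.0672, without Ctrl+FF 2). Jund passed in 5 (up to 0.074, without Ctrl+FF 2) and Btg2 in 5 (up to 0.071, without Ctrl+FF 1). The glucocorticoid count moved from 6 to 1 (without Ctrl+FF 1), 2 (without Ctrl+FF 2) and 3 (without B2D+FF 4), and the immediate-early count from 5 to 3 (without Ctrl+FF 1, Ctrl+FF 2 or Ctrl+FF 3).

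Targets of the xenobiotic receptors rose beyond Cyp2b10. Among 36 genes of CAR and PXR tested 6 rose and 2 fell (22.2% called, against 4.45% of all genes). In this list 16 of 17 cytochrome P450 genes lay above 0 with a median of 0.66. Cyp2c29 stood at 125, 119, 93.9 and 117 FPKM in Ctrl+FF and 216, 323, 179 and 245 FPKM in B2D+FF. Cyp2c29 rose by 1.05 on the log2 scale (SE 0.18, limma adjusted p = 0.0145). Cyp2c37 stood at 35, 34.4, 36.1 and 32.6 FPKM in Ctrl+FF and 70.5, 146, 100.4 and 119 FPKM in B2D+FF. Cyp2c37 rose by 1.58 on the log2 scale (SE 0.19, limma adjusted p = 0.00391), and Cyp3a11 rose from 603 ± 103 to 1023 ± 183 FPKM (limma adjusted p = 0.0355). All 3 belong to families of similar genes between which reads can be split. Slco1a4, an organic anion carrier, stood at 1.47, 1.09, 1.32 and 1.98 FPKM in Ctrl+FF and 9.17, 14.7, 12.8 and 15 FPKM in B2D+FF. Slco1a4 rose by 2.49 on the log2 scale (SE 0.16, limma adjusted p = 0.000356), and in this list Sult2a8, a bile acid sulfotransferase, fell from 245 ± 93.3 to 55.9 ± 14.1 FPKM (limma adjusted p = 0.00391). The 2 receptors themselves had 0 calls (median -0.098). Cyp2c29, Cyp2c37, Slco1a4 and Sult2a8 passed in each of the 8 fits with 1 mouse removed. Cyp3a11 passed in 2 (limma adjusted p up to 0.104, without Ctrl+FF 1).

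Of 44 NRF2 targets tested 4 rose and 0 fell (9.09% called, against 4.45% of all genes), and 30 lay above 0 (median 0.15). The count moved from 4 to 2 (without Ctrl+FF 2) and 7 (without B2D+FF 3). The carbonyl reductase Cbr1 stood at 50.8, 47.5, 60 and 58.9 FPKM in Ctrl+FF and 197, 180.1, 134 and 193 FPKM in B2D+FF. Cbr1 rose by 1.67 on the log2 scale (SE 0.14, limma adjusted p = 0.00119), and its neighbour Cbr3 rose from 0.343 ± 0.0760 to 3.3 ± 2.36 FPKM (limma adjusted p = 0.0374), with 5 to 9 reads per Ctrl+FF library and 31 to 160 reads per B2D+FF library. Maff, a small Maf transcription factor, stood at 1.27, 1.52, 1.49 and 1.62 FPKM in Ctrl+FF and 4.03, 5.08, 4.97 and 4.03 FPKM in B2D+FF, with little spread in either group. Maff rose by 1.16 on the log2 scale (SE 0.09, limma adjusted p = 0.000918), and the quinone reductase Nqo1 rose from 7.65 ± 0.584 to 12.1 ± 1.4 FPKM (limma adjusted p = 0.0133). Genes of glutathione synthesis and use in the NRF2 list had 0 calls among 15 tested. The antioxidant response element, searched as TGACNNNGC on both strands, lay in the promoters of 17.1% of the 8428 genes, of 15 of 39 NRF2 targets and of 1 of the 4 that rose, Maff. Among 43 phase II genes 2 rose and 4 fell (13.95% called), and the count moved from 6 to 3 (without Ctrl+FF 1 or Ctrl+FF 2). Mgst3, a microsomal glutathione transferase, rose from 30.8 ± 2.3 to 80.5 ± 18 FPKM (log2 fold change 1.33, SE 0.16, limma adjusted p = 0.00391) and Ugt2b1, a glucuronosyltransferase, stood at 28.3, 20.5, 23.8 and 21.7 FPKM in Ctrl+FF and 2.81, 13.8, 7.91 and 5.23 FPKM in B2D+FF (limma adjusted p = 0.0277). Cbr1, Maff and Mgst3 passed in each of the 8 fits with 1 mouse removed. Nqo1 passed in 7 (limma adjusted p up to 0.0526, without Ctrl+FF 2), Cbr3 in 3 (up to 0.102, without Ctrl+FF 2) and Ugt2b1 in 3 (up to 0.0887, without Ctrl+FF 1).

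The largest falls were in genes that are higher in male than in female mouse liver. Of 52 such genes on the list, 44 were tested, 25 fell and 0 rose (56.8% called, against 2.21% of all genes that fell), with a median of -1.40 that stayed between -1.66 and -1.26 over the alternatives. The count of calls moved from 25 to 13 (without Ctrl+FF 1). The list and its counterpart for female liver were written with these falls known, so the counts describe the lists and are no independent evidence of direction. The major urinary proteins (Mup), pheromone carriers that male liver secretes in bulk, took 2.46, 2.21, 4.34 and 1.32 percent of all FPKM in Ctrl+FF mice 1 to 4 and 0.351, 0.29, 0.235 and 0.141 percent in B2D+FF mice 1 to 4. The highest B2D+FF mouse was below the lowest Ctrl+FF mouse, and the means were 2.58% ± 1.27 and 0.254% ± 0.089 (exact permutation test, two-sided, p = 0.0286, the smallest that 4 against 4 mice allow). Mup genes are near-identical copies in a cluster on chromosome 4, so that single members are uncertain while reads split within the family move the sum less. For example Mup10, chosen after its values were seen, was at 3.35 FPKM or less in 7 livers and at 254 FPKM in B2D+FF 4, against the direction of the family.

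Outside the Mup cluster, 13 of 25 tested male-biased genes fell (median -0.78). C9, a component of the complement membrane attack complex, stood at 34, 20.8, 26.3 and 24 FPKM in Ctrl+FF and 1.93, 4.73, 5.88 and 3.21 FPKM in B2D+FF. C9 fell by 2.52 on the log2 scale (SE 0.25, limma adjusted p = 0.00215). Alas2, a heme synthesis gene, stood at 13.7, 14.7, 15.4 and 16.6 FPKM in Ctrl+FF and 5.72, 4.11, 5.65 and 5.56 FPKM in B2D+FF, without overlap and with little spread. Alas2 fell by 1.37 on the log2 scale (SE 0.11, limma adjusted p = 0.000918). Markers of erythroid cells, in which Alas2 is best known, were all below 0 in the 5 tested, which include Alas2 itself beside 4 hemoglobin genes that were not called. Their summed levels overlapped between groups at 437 to 630 FPKM in Ctrl+FF and 284 to 690 FPKM in B2D+FF, and their part in the fall of Alas2 was not tested. Serpina1e, an antitrypsin copy, stood at 101, 42, 229 and 40.7 FPKM in Ctrl+FF and 12.7, 6.57, 6.04 and 6.82 FPKM in B2D+FF. Serpina1e fell by 3.21 on the log2 scale (SE 0.51, limma adjusted p = 0.0113), and Cyp7b1, an oxysterol hydroxylase, fell from 36.7 ± 12.6 to 17.4 ± 1.38 FPKM (limma adjusted p = 0.0382). Of 34 genes higher in female liver 18 were tested and 7 rose, 0 fell (38.9% called, median 0.45). They include Fmo2, a flavin monooxygenase, at 5.08, 3.46, 3.57 and 3.82 FPKM in Ctrl+FF and 10.4, 6.7, 10.8 and 10.8 FPKM in B2D+FF. Fmo2 rose by 1.09 on the log2 scale (SE 0.16, limma adjusted p = 0.00843). Nipal1, of a family of magnesium transporters, stood at 2.03, 1.94, 3.44 and 2.83 FPKM in Ctrl+FF and 6.9, 6.42, 6.66 and 7.71 FPKM in B2D+FF. Nipal1 rose by 1.17 on the log2 scale (SE 0.14, limma adjusted p = 0.0031). Of 17 genes of the growth hormone to STAT5 pathway 2 fell (11.8% called, against 4.45% of all genes). The growth hormone receptor Ghr fell from 37.7 ± 3.1 to 23.4 ± 3.59 FPKM (limma adjusted p = 0.0182). Igfals, a binding partner of IGF-1 in blood, fell from 28.6 ± 4.06 to 19.5 ± 1.76 FPKM (limma adjusted p = 0.0333). The growth hormone count moved from 2 to 0 (without Ctrl+FF 1, Ctrl+FF 2 or Ctrl+FF 3) and 1 (without Ctrl+FF 4 or B2D+FF 4). The STAT5 element TTCNNNGAA lay in 8.0% of the 8428 promoters, in 4 of 16 of the growth hormone genes and in 1 of 18 called male-biased genes. C9, Alas2, Serpina1e, Fmo2 and Nipal1 passed in each of the 8 fits with 1 mouse removed. Cyp7b1 passed in 2 (limma adjusted p up to 0.104, without Ctrl+FF 1), Ghr in 5 (up to 0.0677, without Ctrl+FF 1) and Igfals in 1 (up to 0.0872, without B2D+FF 4). The count of female-biased genes moved from 7 to 4 (without Ctrl+FF 1 or Ctrl+FF 2).

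**Figure D4:**
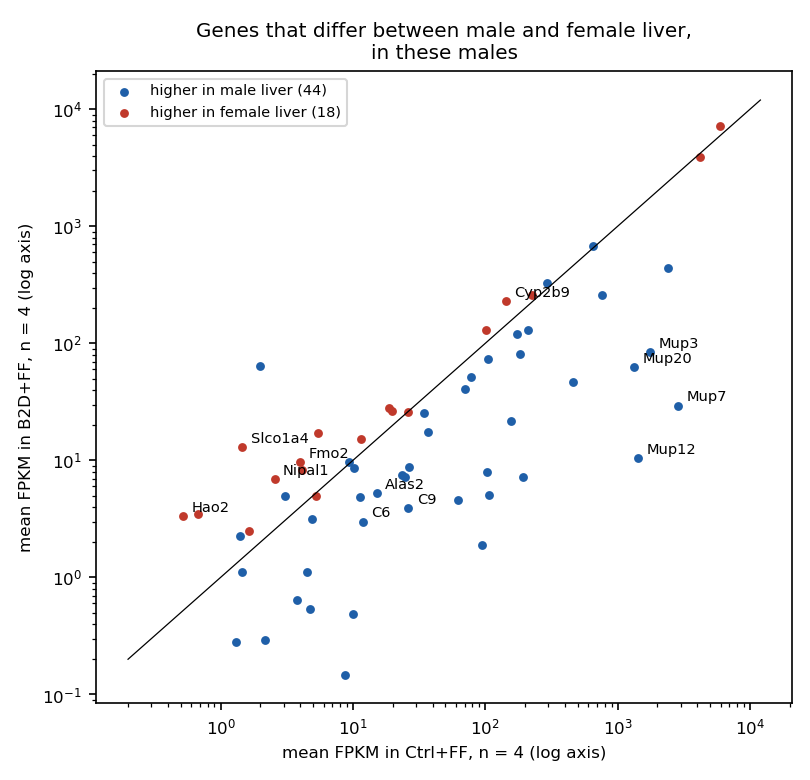
Mean FPKM in B2D+FF against mean FPKM in Ctrl+FF (n = 4 each, log axes) for 44 genes higher in male liver (blue) and 18 higher in female liver (red) that were tested, with a line of equality. Most blue points lie below the line, with Mup12 farthest among the labelled ones, and the blue point above it at the left is Mup10, with 254 FPKM in 1 of the 4 B2D+FF mice.

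Called genes also lay side by side on the chromosomes. With neighbours taken as consecutive tested genes called in the same direction and at most 200 kb apart, 37 runs of 2 or more genes were found. The longest held 7 genes that fell on chromosome 4 (61783123 to 62150863 on GRCm38, in the Mup cluster), and 4 further runs held 4 genes each, among them Saa1, Saa2, Saa3 and Saa4 on chromosome 7 (46711998 to 46754313), which fell. Among the runs of 3 genes, Cyp2c68, Cyp2c40 and Cyp2c37 on chromosome 19 (39688834 to 40012243) rose. These neighbours were singled out after their values were seen, and in the runs named they are mostly members of 1 family, between which reads can be shared.

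Among genes of fatty acid synthesis, the transcription factors of the lipogenic program fell. Of 22 genes tested 4 fell and 1 rose (22.7% called, against 4.45% of all genes, median -0.21). Srebf1, the transcription factor that drives the lipogenic program, stood at 27.5, 30.1, 23.7 and 30 FPKM in Ctrl+FF and 7.61, 11.6, 8.43 and 11.1 FPKM in B2D+FF. Srebf1 fell by 1.44 on the log2 scale (SE 0.14, limma adjusted p = 0.00206). Mlxipl, which encodes the carbohydrate-responsive factor ChREBP, fell from 31 ± 1.63 to 17 ± 1.83 FPKM (log2 fold change -0.84, SE 0.09, limma adjusted p = 0.00269). Scd1, the stearoyl-CoA desaturase, stood at 2605, 2717, 1142 and 2683 FPKM in Ctrl+FF and 510.2, 790.2, 487 and 879 FPKM in B2D+FF, with Ctrl+FF 3 well below the other Ctrl+FF mice and still above each B2D+FF mouse. Scd1 fell by 1.74 on the log2 scale (SE 0.31, limma adjusted p = 0.0181). Agpat2, an acyltransferase of triglyceride synthesis, fell from 140.3 ± 5.28 to 76.6 ± 10.5 FPKM (limma adjusted p = 0.00391). Lpin1, a phosphatidate phosphatase that also serves as a coactivator of PPARα, rose from 3.3, 4.81, 6.24 and 11.9 FPKM in Ctrl+FF to 18.9, 27.3, 26.7 and 15.2 FPKM in B2D+FF (log2 fold change 1.69, SE 0.32, limma adjusted p = 0.0208). Srebf1, Mlxipl and Agpat2 passed in each of the 8 fits with 1 mouse removed. Scd1 passed in 5 (limma adjusted p up to 0.0647, without Ctrl+FF 2) and Lpin1 in 5 (up to 0.0733, without Ctrl+FF 2). The count moved from 5 to 3 (without Ctrl+FF 1 or Ctrl+FF 2). By contrast 0 of 26 cholesterol synthesis genes were called (median -0.089, a sign that flipped in 1 of 15 alternatives).

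Among genes on no list with the smallest adjusted p were 2 of sphingolipid metabolism. Sptlc3, a subunit of the serine palmitoyltransferase that starts sphingolipid synthesis, stood at 4.88, 2.63, 3.62 and 3.19 FPKM in Ctrl+FF and 0.660, 0.207, 0.544 and 0.635 FPKM in B2D+FF. Sptlc3 fell by 1.59 on the log2 scale (SE 0.16, limma adjusted p = 0.00214). Cerk, the ceramide kinase, stood at 0.570, 0.833, 0.801 and 0.625 FPKM in Ctrl+FF and 2.44, 2.21, 1.89 and 2.02 FPKM in B2D+FF. Cerk rose by 0.88 on the log2 scale (SE 0.09, limma adjusted p = 0.00215). Of other lipid genes, Apoa4 rose from 24.3 ± 4.56 to 59.2 ± 15.7 FPKM (limma adjusted p = 0.0103), hepatic lipase Lipc fell from 44.4 ± 5.76 to 28.8 ± 4.89 FPKM (limma adjusted p = 0.0448), and the carboxylesterase Ces3a fell from 324 ± 66.6 to 113 ± 8.95 FPKM (log2 fold change -1.49, SE 0.15, limma adjusted p = 0.00215). Vldlr, a lipoprotein receptor, changed by 0.64 (SE 0.17) and did not pass, although it passed in 3 of 15 alternatives. Cyp39a1, an oxysterol hydroxylase, stood at 3.09, 3.78, 3.0 and 6.32 FPKM in Ctrl+FF and 17.1, 11.4, 16.3 and 12.6 FPKM in B2D+FF. Cyp39a1 rose by 1.63 on the log2 scale (SE 0.20, limma adjusted p = 0.0042). Scnn1g, a subunit of the epithelial sodium channel, fell from 2.98 ± 0.296 to 0.502 ± 0.168 FPKM (log2 fold change -1.41, SE 0.10, limma adjusted p = 0.000596), and Sema5b, a semaphorin, from 3.66 ± 0.425 to 1.2 ± 0.302 FPKM (limma adjusted p = 0.00247). Among secreted hormones of fasting, Leap2, the antagonist of the ghrelin receptor, stood at 78.6, 87.8, 94.5 and 60.6 FPKM in Ctrl+FF and 29.2, 26.3, 21.5 and 20.9 FPKM in B2D+FF. Leap2 fell by 1.67 on the log2 scale (SE 0.16, limma adjusted p = 0.00204). Sptlc3, Cerk, Apoa4, Ces3a, Cyp39a1, Scnn1g, Sema5b and Leap2 passed in each of the 8 fits with 1 mouse removed. Lipc passed in 2 (limma adjusted p up to 0.123, without Ctrl+FF 2).

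Called genes of complement, of the interferon response and of class I presentation all fell in B2D+FF. Of 34 complement genes tested 9 fell and 0 rose (26.5% called, against 4.45% of all genes, median -0.24). In 10 of the 34 every B2D+FF mouse lay below every Ctrl+FF mouse, against 6.44% of all genes. Of the 9 that fell, C6, C8a, C8b and C9 encode parts of the membrane attack complex and are also on the list of male-biased genes. C6 stood at 14.7, 9.14, 13.8 and 10.4 FPKM in Ctrl+FF and 4.06, 2.34, 3.61 and 1.99 FPKM in B2D+FF. C6 fell by 1.71 on the log2 scale (SE 0.20, limma adjusted p = 0.00315), and C4bp, an inhibitor of complement, fell from 34.4 ± 5.89 to 16.9 ± 1.74 FPKM (limma adjusted p = 0.00604). Of 48 interferon-stimulated genes tested 6 fell, 0 rose and 43 lay below 0 (12.5% called, median -0.25). Bst2, the antiviral protein tetherin, stood at 147, 134, 148 and 123 FPKM in Ctrl+FF and 63.8, 77.4, 85.8 and 78.4 FPKM in B2D+FF. Bst2 fell by 0.85 on the log2 scale (SE 0.11, limma adjusted p = 0.00533). Irf7, a transcription factor of the interferon response, stood at 3.15, 4.49, 3.7 and 3.33 FPKM in Ctrl+FF and 1.52, 1.56, 2.23 and 1.32 FPKM in B2D+FF. Irf7 fell by 0.82 on the log2 scale (SE 0.12, limma adjusted p = 0.0103). Of 23 genes of MHC class I presentation 3 fell and 20 lay below 0 (median -0.33), with H2-Q10, a secreted liver class I molecule, at 654 ± 40.2 FPKM in Ctrl+FF and 467 ± 29.1 FPKM in B2D+FF (limma adjusted p = 0.0254). Its family shares sequence, and single members are uncertain. C6, C4bp, Bst2 and Irf7 passed in each of the 8 fits with 1 mouse removed. H2-Q10 passed in 4 (limma adjusted p up to 0.095, without Ctrl+FF 1). The complement count moved from 9 to 5 (without Ctrl+FF 1), the interferon count from 6 to 3 (without Ctrl+FF 1, Ctrl+FF 2, Ctrl+FF 3 or B2D+FF 1) and 10 (without B2D+FF 3) and the class I count from 3 to 1 (without Ctrl+FF 1, Ctrl+FF 2 or B2D+FF 4) and 7 (without B2D+FF 3).

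Macrophage markers lay mostly below 0 without passing, and markers of some other cells leaned the same way. Below 0 were 9 of 11 stellate cell markers tested (median -0.19) and 10 of 12 endothelial markers, whereas 4 of 4 neutrophil markers tested lay above 0. Summed stellate markers stood at 45.7 FPKM in B2D+FF 2, 70.6 to 81.6 in the other B2D+FF mice and 59.6 to 76.1 in Ctrl+FF. Summed endothelial markers stood at 42.9 FPKM in B2D+FF 2, 53.5 to 63.7 in the other B2D+FF mice and 50.1 to 58.0 in Ctrl+FF. The part of this 1 mouse in the lean was not tested. Of 14 Kupffer cell and macrophage markers 12 lay below 0 and 0 were called. These markers summed to 142 to 261 FPKM in Ctrl+FF and 95.8 to 248 FPKM in B2D+FF, lowest in B2D+FF 2. Their part in the lower interferon and class I genes was not tested. Of 28 acute-phase genes 2 rose and 4 fell (21.4% called, against 4.45% of all genes). The serum amyloid gene Saa4 stood at 54.8, 52.1, 62.6 and 52.6 FPKM in Ctrl+FF and 13, 19.9, 24.6 and 17.1 FPKM in B2D+FF. Saa4 fell by 1.55 on the log2 scale (SE 0.17, limma adjusted p = 0.00252). Saa2 stood at 7.6, 1.88, 3.66 and 4.94 FPKM in Ctrl+FF and 0.373, 0.430, 0.441 and 0.601 FPKM in B2D+FF (limma adjusted p = 0.0103), while Orm3, of the orosomucoids, rose from 7.4 ± 0.865 to 16.5 ± 4.03 FPKM (limma adjusted p = 0.0105). The Saa and Orm genes are families of similar copies. Of 27 coagulation genes 2 fell (7.41% called, against 4.45% of all genes). They were Proz (from 40.1 ± 3.98 to 22.2 ± 4.6 FPKM, limma adjusted p = 0.0137) and Klkb1 (limma adjusted p = 0.0403). The coagulation count moved from 2 to 0 (without Ctrl+FF 1), 1 (without Ctrl+FF 2, Ctrl+FF 3, Ctrl+FF 4, B2D+FF 1 or B2D+FF 4) and 5 (without B2D+FF 3). Cfd, the adipocyte protease adipsin, stood at 19.6, 17.2, 13.1 and 6.21 FPKM in Ctrl+FF and 2.1, 0.587, 2.15 and 4.34 FPKM in B2D+FF. Cfd fell by 2.21 on the log2 scale (SE 0.40, limma adjusted p = 0.0182). The summed adipocyte markers, which include it, were at 103 to 265 FPKM in Ctrl+FF and 42.7 to 106 FPKM in B2D+FF. Most of that sum was Car3, at 242, 239, 174 and 96.6 FPKM in Ctrl+FF and 40.2, 105, 88.8 and 46.6 FPKM in B2D+FF, which was not called. The markers Adipoq, Plin1, Lep and Retn were below the level tested, with means of 0.354, 0.0607, 0.0176 and 0.111 FPKM over the 8 livers. The part of adipocytes in the fall of Cfd was not tested. The neutrophil marker Retnlg rose from 0.301 ± 0.141 to 1.63 ± 0.766 FPKM (limma adjusted p = 0.028), with 2 to 5 reads per Ctrl+FF library and 9 to 30 reads per B2D+FF library, and the endothelial marker Lyve1 from 5.38 ± 0.518 to 10.1 ± 2.89 FPKM (limma adjusted p = 0.0294). Lyve1 was the 1 call among 12 endothelial markers tested, of which 10 lay below 0 (median -0.14). Saa4, Saa2 and Orm3 passed in each of the 8 fits with 1 mouse removed. Proz passed in 7 (limma adjusted p up to 0.0536, without Ctrl+FF 1), Cfd in 5 (up to 0.0651, without Ctrl+FF 2) and Retnlg in 3 (up to 0.0872, without Ctrl+FF 2). Lyve1 passed in 4 (up to 0.0951, without Ctrl+FF 1) and Klkb1 in 1 (up to 0.121, without Ctrl+FF 1).

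Among lncRNA genes the largest changes were falls. C730036E19Rik stood at 14.5, 12.5, 21.6 and 9.85 FPKM in Ctrl+FF and 0.959, 2.1, 3.77 and 0.974 FPKM in B2D+FF (log2 fold change -2.45, SE 0.31, limma adjusted p = 0.00438) and Gm32468 at 8.04, 12.3, 9.62 and 5.98 FPKM in Ctrl+FF and 1.47, 0.274, 1.71 and 0.907 FPKM in B2D+FF. Gm32468 fell by 2.27 on the log2 scale (SE 0.26, limma adjusted p = 0.00288). Gm12909 and Gm13775 lie within the Mup cluster and had log2 fold changes of -1.72 and -1.64 (limma adjusted p = 0.00269 and limma adjusted p = 0.0268). C4a, annotated as a processed transcript and nearly identical to C4b, fell from 6.87 ± 1.23 to 1.86 ± 0.577 FPKM (limma adjusted p = 0.00252). The sources used here do not say whether reads were counted by strand, so reads of lncRNA and overlapping genes cannot be told apart. C730036E19Rik, Gm32468, Gm12909 and C4a passed in each of the 8 fits with 1 mouse removed. Gm13775 passed in 4 (limma adjusted p up to 0.0791, without Ctrl+FF 2).

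The counts of the remaining lists stand beside 4.45% of all genes called. Cytosolic ribosomal proteins had 0 calls among 74 genes (median 0.074, a sign that flipped in 1 of 15 alternatives) and proteasome genes 0 among 31 (median 0.12). Mitochondrial proteases and chaperones had 1 rise among 15 (median 0.12), AHR targets 1 rise among 5 (Nqo1, 20% called), circadian genes 1 rise among 20 (Per2, from 3.3 ± 0.545 to 4.84 ± 0.512 FPKM, limma adjusted p = 0.0463) and iron and heme genes 1 fall among 32, Alas2. Cell cycle genes had 1 rise and 1 fall among 13 (15.4%), the fall being Tk1, thymidine kinase, from 3.85 ± 0.791 to 1.38 ± 0.413 FPKM (limma adjusted p = 0.00986). Collagen and matrix genes had 2 falls among 18 (11.1%), Mmp15 (limma adjusted p = 0.021) and Col14a1 (limma adjusted p = 0.042). Bile acid genes had 1 rise and 1 fall among 24, apolipoprotein genes 1 and 1 among 21, metallothioneins and metal carriers 1 rise among 8 (12.5%), and secreted hormones of fasting 2 rises and 1 fall among 17 (17.6%). The collagen count moved from 2 to 0 (without Ctrl+FF 1, Ctrl+FF 2, B2D+FF 1 or B2D+FF 4) and 1 (without Ctrl+FF 3 or Ctrl+FF 4), and the cell cycle count from 2 to 1 (without Ctrl+FF 1, Ctrl+FF 2, Ctrl+FF 3, Ctrl+FF 4, B2D+FF 1, B2D+FF 2 or B2D+FF 4). Tk1 passed in each of the 8 fits with 1 mouse removed. Per2 passed in 1 (limma adjusted p up to 0.136, without Ctrl+FF 2), Mmp15 in 4 (up to 0.0749, without Ctrl+FF 2) and Col14a1 in 1 (up to 0.12, without Ctrl+FF 1).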

How the data were processed

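Liver mRNA was sequenced by the authors, aligned with STAR to mm10 (GRCm38) and counted per gene with featureCounts, and the deposited values are FPKM (tool versions and strand setting are not given in the sources used here). Low FPKM values times gene length came out as whole reads in 100% of values (tolerance 0.02), and the deposited scaling followed median-of-ratios size factors. The table of the mice without fenofibrate was not used here. Values of a few genes are not reported here.

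Genes with a mean of at least 0.5 FPKM were tested as log2(FPKM + 1), with limma 3.58.1 (trended empirical Bayes) and Benjamini-Hochberg adjustment over all of them, at 0.05. Shares of FPKM were compared by an exact permutation test. The p-values measure spread between mice. The genes, lists and tests were chosen with earlier results of these data known. Genes named are the largest changes without overlap, up to 4 called members of each list role with the smallest adjusted p, genes the study singled out, and the leading lncRNA and unlisted genes. Others are said to be chosen after their values were seen, which also holds for Junb, Fkbp5, C8b, Ido2 and Mup10. Alternatives were another pseudocount (0.1), no filter, a minimum of 5 FPKM, upper-quartile and quantile scaling, array weights, voom on recovered reads, and leaving out each mouse.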

Additional observations from a re-analysis of the deposited data

Results flagged for a closer look

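In 17 of 326 groups of 4 mice (5.21%) 1 mouse lay apart from its group by Dixon's ratio, and chance alone gives about 1 in 20. B2D+FF 2 was the mouse in 5 of the 17 and Ctrl+FF 3 in 4. In B2D+FF 2, Alas2 (4.11 FPKM, the others 5.56 to 5.72), Fmo2 (6.70, the others 10.4 to 10.8) and Ndufv1 (77.0, the others 93.4 to 94.9) were low, and Klf6 (8.08, the others 3.88 to 4.27) and Trp53inp1 (34.0, the others 20.3 to 21.4) were high. In Ctrl+FF 3, Gm12909 (5.10 FPKM, the others 2.46 to 2.65) and Mgst3 (34.2, the others 29.2 to 30.0) were high, and Mmp15 (3.98, the others 5.49 to 5.67) and Scd1 (1142 FPKM, the others 2605 to 2717) were low.

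In B2D+FF 3, Mup12 (33.9 FPKM, the others 0.743 to 3.49) and Rgs16 (47.5, the others 15.6 to 17.4) were high and Nrg4 (5.68, the others 7.19 to 7.43) was low. Mup10 stood at 254 FPKM in B2D+FF 4, against 0.380 to 1.24 in its group, and Serpina1e at 12.7 in B2D+FF 1, against 6.04 to 6.82. Among the other Ctrl+FF mice, Mlxipl was low in mouse 1 (28.6, the others 31.7 to 32), Ppara high in mouse 2 (60.0, the others 53.3 to 54.1) and Per2 high in mouse 4 (4.11, the others 2.95 to 3.07).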

How the results depend on the processing

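The count of 529 called genes fell to 272 without a filter on low values and rose to 885 with array weights, and leaving out 1 mouse gave 175 to 596. Upper-quartile scaling moved the split from 266 higher and 263 lower to 223 and 366. Of 130 called genes named here, 63 kept the call in every alternative that tested them and none changed sign, and of 29 named genes that did not pass, 12 passed in some alternative. The calls lost numbered 63 without Ctrl+FF 1, 58 without Ctrl+FF 2, 46 without Ctrl+FF 3, 42 without B2D+FF 4 and 49 without a filter. The Mup share differed by -2.75 to -1.74 percentage points when 1 mouse was left out (exact permutation test, p = 0.0571 in the 4 fits without a B2D+FF mouse), and the hepatocyte marker share of recovered reads by -0.445 percentage points (p = 0.0286). The other alternatives for the total count stayed within 1.5 times. No paired analysis was possible because the labels give each mouse its own number. With 4 mice a group small changes can be missed. The causes of these shifts were not tested.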

Other observations

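Beyond the families described, further neighbours fell together, all singled out after their values were seen. On chromosome 15 (82671288 to 82764183) 4 adjacent genes of the Cyp2d family fell, of which Cyp2d36-ps, Cyp2d37-ps and Cyp2d38-ps are pseudogenes, next to Cyp2d40. On chromosome 6 (122006761 to 122248563) Mug2, of the murinoglobulin protease inhibitors, fell with 2 neighbours, on chromosome 8 (105048601 to 105093929) the carboxylesterases Ces3a and Ces3b with the gene between them, and on chromosome 7 (14410686 to 14518670) the sulfotransferases Sult2a8 and Sult2a7. Chromosome 4, which holds the Mup cluster, had 16 rises and 35 falls in all.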
